A study of Homo sapiens with 24 samples.

Results

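The clustered protocadherin locus on 5q31 was taken as chr5:140780001-141520000 of GRCh38, a stretch of 740 kb that holds the variable exons of 15 PCDHA, 16 PCDHB and 22 PCDHG genes. Its members were the 740 bins of 1 kb that start inside this interval, out of 2835235 bins in the genome-wide table. The bins were taken by position and not by their measured values, but the locus was chosen with earlier results of these data known. OG-seq, a pull-down of DNA fragments that carry 8-oxo-7,8-dihydroguanine (OG) followed by sequencing, was applied to HAP1 cells, a near-haploid human line derived from the KBM-7 leukemia line. The 4 genotypes were WT, MUTYH-/ (no MUTYH), OGG1-/ (no OGG1) and the double knockout DKO, and each had 3 columns in the table, so that 12 columns were compared. All knockouts carry small CRISPR-Cas9 insertions or deletions and exist as 2 clones per genotype. Both DKO clones were made from a single OGG1-/ clone, and a change particular to that clone cannot be told apart from the loss of either gene. No treatment of the cells is given for these samples, and all groups shared the antioxidants added while DNA was isolated. By the sample titles, 2 of the 3 pull-downs of each genotype came from the same clone. The columns could not be tied to clones or to separate experiments, so the 3 columns of a genotype cannot be taken as independent samples. The p-values below measure only the spread between these columns, which may be technical.

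The protocadherins are cell adhesion proteins best known from neurons, where each cell uses its own small set of isoforms and like isoforms on apposed membranes recognise each other. Each variable exon of the PCDHA and PCDHG arrays has its own promoter and is spliced to constant exons shared by its array, whereas the PCDHB genes are single-exon genes. Most of these promoters carry a short conserved sequence element with the core CGCT, and promoter choice is linked to CpG methylation and CTCF binding, while the C-type genes at the ends of the PCDHA and PCDHG arrays are regulated differently. OG is an oxidised guanine that OGG1 removes when it is paired with cytosine, and MUTYH removes the adenine that can be placed opposite it during replication. The study asked where OG accumulates with respect to promoters, CpG-rich DNA and G-quadruplexes and how this changes when repair is lost.

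Sequences just before the variable exons are shown first. RefSeq promoter sequence (GRCh38.p14, plus strand, the strand of all these genes) was matched for 47 of the 53 genes, and PCDHA3, PCDHA13, PCDHB6, PCDHB11, PCDHGA12 and PCDHGC5 had no entry. The letters CGCT lay on the sense strand within 250 bases before the start in 45 of the 47 genes (95.7%), compared with 48.1% of all 35116 promoters of the same length. On either strand they were found in 95.7% and 64.8% respectively. The stretches below come from genes at the high and low ends of the signal described later, and the capitals mark the CGCT nearest the start, with 20 bases kept on either side.
PCDHA6 (chr5:140827893-140827936): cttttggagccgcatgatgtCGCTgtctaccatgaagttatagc
PCDHA11 (chr5:140868879-140868922): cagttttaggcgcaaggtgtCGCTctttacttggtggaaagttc
PCDHB3 (chr5:141100389-141100432): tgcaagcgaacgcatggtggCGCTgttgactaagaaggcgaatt
PCDHB9 (chr5:141187070-141187113): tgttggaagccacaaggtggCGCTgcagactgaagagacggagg
PCDHGA9 (chr5:141402710-141402753): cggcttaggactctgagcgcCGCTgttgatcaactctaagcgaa
PCDHGA10 (chr5:141412927-141412970): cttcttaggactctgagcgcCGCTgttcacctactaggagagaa
PCDHGC4 (chr5:141484948-141484991): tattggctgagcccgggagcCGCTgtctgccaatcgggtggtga
The same letters thus stand before genes with high and with low OG signal at the start. A match of these letters is a description. It shows neither that the conserved element is present, in PCDHGC4 or elsewhere, nor that a factor was bound.

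CpG content varied between the promoters. The median number of CpGs in the 250 bases was 6, with a range of 2 to 18, against a median of 11 over all promoters. The sequences of the genes with the highest and the lowest start bin, PCDHGC4 and PCDHA11, are given with every CpG in capitals to show this contrast. The PCDHA11 stretch lies in the start bin of that gene, whereas the PCDHGC4 exon begins near the lower end of its start bin, so that most of its stretch, the CGCT included, lies in the bin before. The PCDHGC4 sequence holds 13 CpGs at 57.6% GC and the PCDHA11 sequence 5 CpGs at 36.0% GC.
PCDHGC4 (chr5:141484780-141485029): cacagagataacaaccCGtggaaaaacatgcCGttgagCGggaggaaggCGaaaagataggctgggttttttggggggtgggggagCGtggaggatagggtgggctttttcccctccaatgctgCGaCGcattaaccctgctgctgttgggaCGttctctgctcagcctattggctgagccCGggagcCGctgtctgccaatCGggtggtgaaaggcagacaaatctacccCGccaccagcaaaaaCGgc
PCDHA11 (chr5:140868707-140868956): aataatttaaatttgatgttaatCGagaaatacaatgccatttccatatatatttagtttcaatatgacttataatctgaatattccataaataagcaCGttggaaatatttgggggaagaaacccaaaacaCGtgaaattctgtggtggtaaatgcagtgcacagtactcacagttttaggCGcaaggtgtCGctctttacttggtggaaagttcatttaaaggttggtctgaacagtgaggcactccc

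The deposited value of a bin is the number of OG reads minus scaled input reads, and it was divided by the mean of its column over all bins, so that a relative OG signal of 1 is the genome mean and values below 0 mean fewer OG than scaled input reads. Whole reads recovered from the values put the OG reads of a column between 59598911 and 113911793, and its input reads between 78619378 and 101601312. Within the locus this was 15289 to 28293 OG reads per column. Single bins were imprecise at this depth: the median SD among columns of 1 genotype was 1.23 per bin, whereas the 12-column means differed between bins by an SD of 0.550. Only 56 of the 740 bins lay above 0 in all 12 columns. For this reason groups of bins carry most of what follows, and single bins are given as descriptions.

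The locus carried less OG signal than its surroundings in every column. The relative OG signal of the locus was 1.00, 0.934 and 0.912 for WT, 0.997, 0.918 and 1.02 for MUTYH-/, 1.08, 0.960 and 0.919 for OGG1-/, and 0.837, 0.911 and 0.916 for DKO. The 1 Mb before the locus lay between 1.14 and 1.43, and the 1 Mb after it between 1.21 and 1.41. No locus value reached the lowest flank value. Over the 12 columns the locus averaged 0.951 ± 0.0653 (SD, n = 12) and the flanks together 1.28 ± 0.0585 (SD, n = 12). The difference of -0.325 had a 2-sided exact sign-flip p of 0.000488, the smallest that 12 columns allow, and was negative in 12 of 12 columns. Compared with the genome rather than with its neighbours, the locus was not extreme, since 49.2% of 3688 windows of 740 bins had a lower signal.

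**Figure D1:**
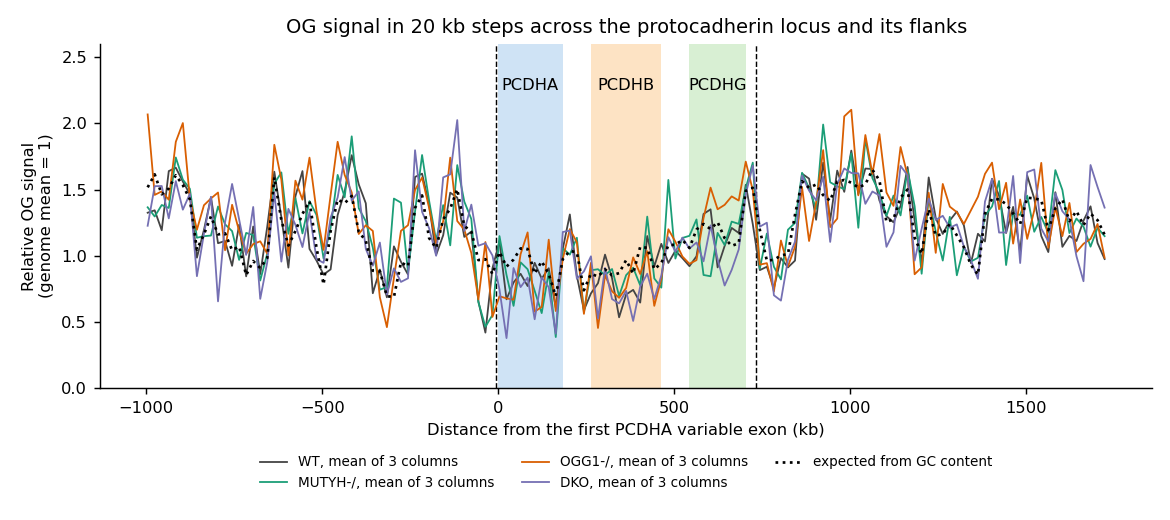
Relative OG signal (genome mean = 1) in steps of 20 kb, plotted against the distance in kb from the first PCDHA variable exon, as the mean of 3 columns per genotype, with the signal expected from GC content as a dotted line. The dashed lines bound the locus, in which the PCDHA and PCDHB arrays lie mostly below 1 and the PCDHG array mostly above it, and the lines of the 4 genotypes cross one another throughout.

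Base composition moved with this difference. The locus had 41.4% GC against 44.2% in the flank before it and 46.1% in the flank after it, and a G-quadruplex (G4) motif in 7.30% of bins against 16.4% and 19.8%. In CpGs it was the richer region, with 17.7 per kb against 11.7 and 13.1. When each bin was compared with all bins of its GC content in the same column, the difference between locus and flanks was -0.102 (2-sided exact sign-flip p = 0.000977), and when CpG number was added it was -0.0533 (exact p = 0.00928). Most of the unadjusted difference was thus absent between bins of like composition, and what remained was still negative. Among windows of 740 bins, 61.6% had a lower GC content than the locus but 93.7% had fewer CpGs, and 23.4% had a lower GC-adjusted signal.

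Within the locus the signal was higher in bins with more GC and more CpGs. Across the 740 bins the 12-column mean correlated with GC content with r = 0.562 (Spearman's rho = 0.613) and with CpG number with r = 0.363 (rho = 0.483). These bins share libraries and neighbouring sequence, so the values are descriptions. The 403 locus bins with under 10 CpGs averaged 0.733, compared with 1.15 in flank bins and 0.833 in all bins of that class. In the 167 bins with 10 to 24 CpGs the averages were 1.13, 1.39 and 1.30, and in the 77 bins with 25 to 44 CpGs they were 1.28, 1.47 and 1.57. The CpG-poor bins, which make up most of the locus, thus averaged less than both the flank bins and all bins of their class, a difference that was not tested. The classes were not matched in GC content, which was 36.4% in these locus bins, 42.0% in the flank bins and 37.7% in all bins with under 10 CpGs. In the 93 bins with 45 or more CpGs the locus averaged 1.30 ± 0.315 (SD, n = 12) against 1.31 ± 0.286 for all such bins. The 12 columns were far apart in this class over the whole genome, with DKO column 1 at 0.628 and MUTYH-/ column 2 at 0.953 below the other 10 columns, which lay between 1.12 and 1.61.

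**Figure D2:**
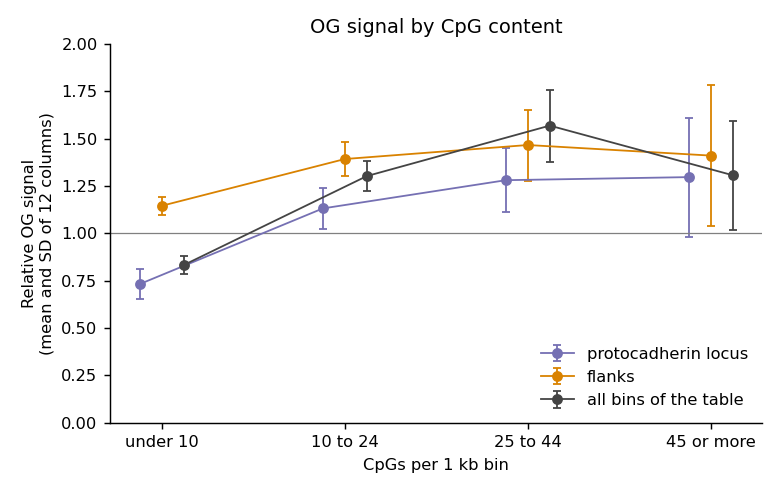
Relative OG signal (genome mean = 1) by the number of CpGs per 1 kb bin in the protocadherin locus, its flanks and all bins of the table, as mean and SD of 12 columns. The locus lies below the flanks in all 4 classes, at 0.733 against 1.15 for bins with under 10 CpGs, and the SD grows to 0.315 in locus bins with 45 or more CpGs.

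Loss of OGG1, MUTYH or both was compared with WT to ask whether the repair genotype changed the signal of the locus. WT averaged 0.949 ± 0.0460, MUTYH-/ 0.979 ± 0.0550, OGG1-/ 0.987 ± 0.0848 and DKO 0.888 ± 0.0441 (SD, n = 3 each). The DKO columns lay around and below the lowest WT column, and every knockout overlapped with WT. The differences from WT were 0.0302, 0.0379 and -0.0614, with 2-sided exact permutation p of 0.5, 0.6 and 0.2 and adjusted p of 0.6 for all 3. With 3 columns against 3 no p below 0.1 is possible. Taken by gene, 6 against 6 columns within the levels of the other gene, OGG1 loss gave -0.0269 (exact permutation p = 0.51) and MUTYH loss -0.0345 (exact permutation p = 0.425). The difference between locus and flanks was -0.290 for WT, -0.295 for MUTYH-/, -0.339 for OGG1-/ and -0.375 for DKO, and the DKO columns did not overlap with WT (exact permutation p = 0.1, adjusted p = 0.3).

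**Figure D3:**
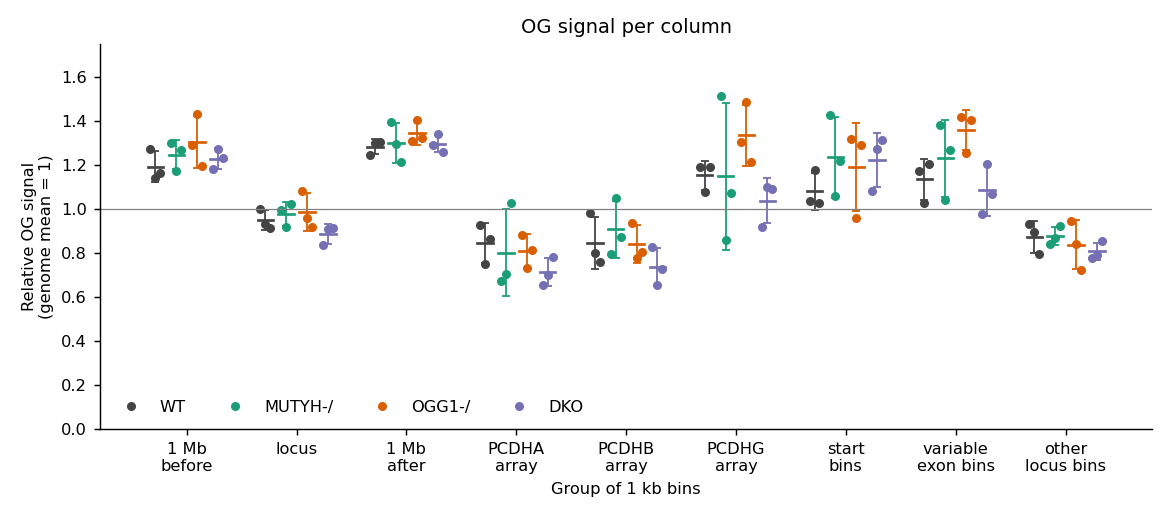
Relative OG signal (genome mean = 1) of each column in the locus, its flanks, the 3 arrays and the start, variable exon and other bins of the locus, with points for columns and bars for mean and SD of 3 columns per genotype. Locus values of 0.837 to 1.08 lie below all flank values of 1.14 to 1.43, and genotypes overlap in most groups of bins.

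The 3 arrays were unequal. The PCDHA array (184 bins, chr5:140786001-140970000) had 0.930, 0.750 and 0.864 for WT, 0.674, 0.706 and 1.03 for MUTYH-/, 0.885, 0.733 and 0.814 for OGG1-/, and 0.657, 0.702 and 0.782 for DKO. The PCDHB array (199 bins, chr5:141051001-141250000) ranged from 0.656 to 1.05. The PCDHG array (162 bins, chr5:141330001-141492000) had 1.19, 1.08 and 1.19 for WT, 1.51, 0.860 and 1.07 for MUTYH-/, 1.30, 1.48 and 1.22 for OGG1-/, and 0.919, 1.10 and 1.09 for DKO. PCDHG was thus the high array, and PCDHA and PCDHB were close to each other. Their means were 0.794 ± 0.114, 0.833 ± 0.111 and 1.17 ± 0.197 (SD, n = 12 each). PCDHA minus PCDHG was -0.375 (2-sided exact sign-flip, adjusted p = 0.00146) and PCDHB minus PCDHG -0.335 (exact, adjusted p = 0.0022), while PCDHA minus PCDHB was -0.0393 (exact p = 0.342). The PCDHG array also had the highest GC content, 44.2% against 40.0% and 40.2%, and the most CpGs, 24.2 per kb against 20.2 and 17.9. Compared with bins of like GC content, PCDHA minus PCDHG was -0.130 (exact, adjusted p = 0.0483) and PCDHB minus PCDHG -0.0878 (exact, adjusted p = 0.253). With CpG number added they were -0.113 (exact, adjusted p = 0.0938) and -0.118 (exact, adjusted p = 0.111), so that the differences between arrays were no longer called.

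By genotype, the PCDHG array was the only one of the 3 arrays in which the relative OG signal of a knockout did not overlap with WT. All 3 OGG1-/ columns lay above the 3 WT columns, by 0.182 on average, with an exact permutation p of 0.1 and an adjusted p of 0.3. The OG reads of this array, relative to the genome mean of the column, did overlap, at 1.06 to 1.13 for OGG1-/ and 1.08 to 1.09 for WT. Its relative input reads were lower in OGG1-/, at 0.983 to 1.02 against 1.03 to 1.10 for WT. The part of the input was not tested. In the PCDHA array the differences from WT were -0.0454, -0.0376 and -0.135 for MUTYH-/, OGG1-/ and DKO, and in the PCDHB array 0.0609, -0.00713 and -0.109, with no exact permutation p below 0.2. The 28 bins after the last PCDHG variable exon, where the exons shared by the PCDHG transcripts lie, had 50.9% GC and averaged 1.48 ± 0.240 (SD, n = 12). They held 1.08, 1.35 and 1.37 for WT, 1.69, 1.49 and 1.68 for MUTYH-/, 1.53, 1.22 and 1.63 for OGG1-/, and 1.55, 1.95 and 1.26 for DKO. The 3 MUTYH-/ columns lay above the 3 WT columns and the other knockouts overlapped with WT, which was not tested. The relative OG reads of these bins overlapped, at 1.12 to 1.15 for MUTYH-/ and 1.08 to 1.15 for WT. Their relative input reads averaged 0.961 for MUTYH-/ and 1.04 for WT.

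The bins that hold the start of a variable exon had more signal than the rest of the locus. The 53 start bins had 1.04, 1.18 and 1.03 for WT, 1.43, 1.06 and 1.22 for MUTYH-/, 1.32, 0.960 and 1.29 for OGG1-/, and 1.08, 1.27 and 1.31 for DKO. Their mean of 1.18 ± 0.147 (SD, n = 12) exceeded that of the other locus bins, 0.933, by 0.250, with a 2-sided exact sign-flip p of 0.000488 and in 12 of 12 columns. With GC content taken into account in the same way it was 0.0712 (exact p = 0.133), and with CpG number added 0.0933 (exact p = 0.0669), so the call was lost under both. No difference between a knockout and WT passed the test, with values of 0.135, 0.0782 and 0.220 for MUTYH-/, OGG1-/ and DKO and exact permutation p of 0.4, 0.7 and 0.2.

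Taken whole, the variable exons were GC-rich and CpG-rich islands in poor surroundings. Their 212 bins had 47.9% GC and 38.9 CpGs per kb, compared with 38.7% and 9.18 in the other 528 locus bins. The exon bins gave 1.17, 1.03 and 1.21 for WT, 1.38, 1.04 and 1.27 for MUTYH-/, 1.42, 1.26 and 1.40 for OGG1-/, and 0.979, 1.21 and 1.07 for DKO. The 3 OGG1-/ columns lay above the 3 WT columns, and the other knockouts overlapped with WT. The other locus bins averaged 0.850 ± 0.0686 (SD, n = 12), and exon minus other bins was 0.353 (exact sign-flip p = 0.000488). For OGG1-/ this difference exceeded that of WT by 0.261 (exact permutation p = 0.1, adjusted p = 0.3). In the same exon bins the OG reads, relative to the genome mean of the column, ran the other way, with 1.08, 1.03 and 1.04 for OGG1-/ below 1.11, 1.10 and 1.12 for WT. The input reads on the same relative scale were lower in OGG1-/ as well, as given at the end. These relative input reads are not the scaled input that is subtracted.

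Most variable exons lay above the genome mean. The mean over all bins of the exon exceeded 1 in 42 of 53 genes: 12 of 15 PCDHA, 11 of 16 PCDHB and 19 of 22 PCDHG. The start bin alone exceeded 1 in 35 genes, with 10, 11 and 14 in the 3 arrays. No share of all bins above 1 is given beside these counts, and all bins of the table with 25 to 44 CpGs averaged 1.57. Relative to bins of the same GC content and CpG number, 32 of the 53 exons and 30 of the 53 start bins were above expectation. These counts have no share of all bins beside them either, so all counts in this paragraph are descriptions. The median SD over the 12 columns was 0.711 for an exon and 1.27 for a start bin, so neighbours in the order of genes cannot be separated.

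**Figure D4:**
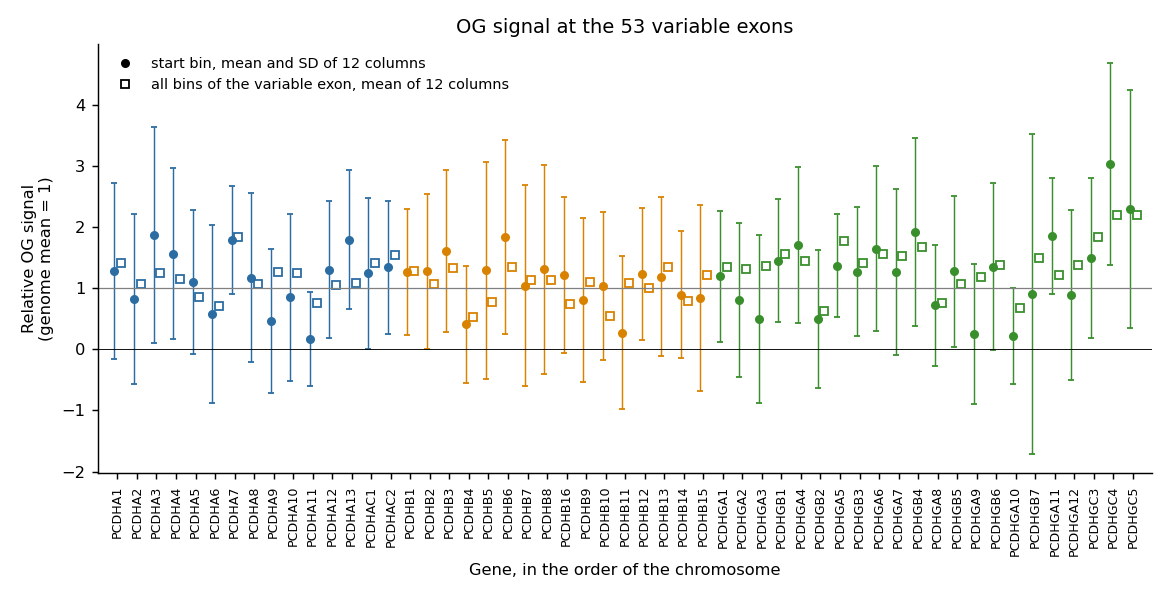
Relative OG signal (genome mean = 1) at the 53 variable exons in the order of the chromosome, with the start bin as a filled point with mean and SD of 12 columns and the mean over all bins of the exon as an open square, in blue for PCDHA, orange for PCDHB and green for PCDHG. PCDHGC4 at 3.03 has the highest start bin, PCDHA11 at 0.167 the lowest, and the SDs of most neighbours overlap.

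The C-type genes, which are more alike across arrays than to their own array, stood at the upper end. The exon mean was above 1 in 5 of 5, and their 18 exon bins averaged 1.79 ± 0.421 (SD, n = 12) compared with 1.15 ± 0.143 in the 194 bins of the other variable exons. Both sets had 38.9 CpGs per kb, but the C-type bins had 53.9% GC and the others 47.4%. Over its exon, PCDHGC4 had 1.63, 2.09 and 1.70 for WT, 4.01, 2.90 and 1.998 for MUTYH-/, 1.42, 2.21 and 1.85 for OGG1-/, and 2.05, 3.72 and 0.726 for DKO. The PCDHGC3 exon had 1.88, 1.74 and 3.12 for WT, 2.82, 1.26 and 1.67 for MUTYH-/, 1.64, 1.67 and 1.11 for OGG1-/, and 2.14, 2.08 and 0.909 for DKO. In both genes DKO column 3 alone was below 1, and the genotypes overlapped. PCDHGC5 averaged 2.19 ± 1.14, PCDHAC2 1.54 ± 0.706 and PCDHAC1 1.40 ± 0.733 over the exon (SD, n = 12 each). Over the exon all 5 exceeded the values expected from GC content and CpG number, which ranged from 1.28 in PCDHAC1 to 1.68 in PCDHGC5. At the start bin 3 of the 5 did so.

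At the start bin, PCDHGC4 had the highest mean of the locus. Its values were 0.143, 3.95 and 2.56 for WT, 4.97, 4.10 and 4.83 for MUTYH-/, 3.50, 3.46 and 2.19 for OGG1-/, and -0.0671, 4.16 and 2.56 for DKO, with a mean of 3.03 ± 1.64 (SD, n = 12) against an expectation of 1.42. The 3 MUTYH-/ columns were above all WT columns, while 1 WT and 1 DKO column were near 0. PCDHGC5 followed at 2.3 ± 1.95. Its start bin also holds a G4 motif just before the exon on the minus strand, printed here with the runs of G in capitals.
PCDHGC5 (chr5:141489056-141489077): GGGGGtGGGcaGGGGGGaGGGG
PCDHAC1 had the start bin with the most CpGs, 87 at 66.0% GC, but only 1.24 ± 1.24 (SD, n = 12), next to an expected value of 1.25. Among the C-type genes the start bin with the most CpGs was thus the one with the lowest mean.

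In each array the order of the start bins ran over a wide range. In PCDHA the highest were PCDHA3 at 1.87 ± 1.76, PCDHA13 at 1.79 ± 1.14 and PCDHA7 at 1.79 ± 0.881, and the lowest PCDHA11 at 0.167 ± 0.775, PCDHA9 at 0.460 ± 1.18 and PCDHA6 at 0.575 ± 1.45 (SD, n = 12). In PCDHB the highest were PCDHB6 at 1.84 ± 1.58, PCDHB3 at 1.60 ± 1.32 and PCDHB8 at 1.31 ± 1.71, and the lowest PCDHB11 at 0.270 ± 1.25, PCDHB4 at 0.412 ± 0.956 and PCDHB9 at 0.807 ± 1.34. In PCDHG, after PCDHGC4 and PCDHGC5, PCDHGB4 had 1.92 ± 1.54, and PCDHGA10 at 0.214 ± 0.781, PCDHGA9 at 0.243 ± 1.15 and PCDHGA3 at 0.495 ± 1.38 were lowest. These genes were picked as the ends of an order, so their distance from the rest was fixed by the choice. For PCDHA11 the start bin, at 30.8% GC with 7 CpGs, had an expected value of 0.513, and its own values ran from -0.803 to 1.77 over the 12 columns.

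The PCDHB genes also shared a G4 motif, a sequence of 4 runs of at least 3 guanines with loops of 1 to 7 bases. It lay on the minus strand inside the variable exon of 11 of the 16 genes, in 7 distinct forms of 30 or 31 bases, and the 9 copies of 31 bases were at least 90.3% identical. Representative copies from the GRCh38 genome sequence are shown 5′ to 3′ on the minus strand, with the runs of G in capitals, because their bins span much of the range of the array.
PCDHB3 (chr5:141102126-141102156): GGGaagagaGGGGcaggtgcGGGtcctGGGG
PCDHB4 (chr5:141123472-141123502): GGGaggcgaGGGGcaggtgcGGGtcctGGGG
PCDHB9 (chr5:141188795-141188825): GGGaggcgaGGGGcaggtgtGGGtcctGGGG
PCDHB10 (chr5:141194029-141194059): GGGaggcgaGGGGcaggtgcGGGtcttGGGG
PCDHB13 (chr5:141215600-141215630): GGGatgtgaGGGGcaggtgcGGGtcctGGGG
PCDHB15 (chr5:141247055-141247085): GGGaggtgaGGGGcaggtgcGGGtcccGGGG
Nearly identical letters stood in bins whose means ranged from 0.344 to 1.99, with SDs that overlap. The bin of the PCDHB9 copy averaged 1.99 ± 1.41, that of PCDHB10 0.344 ± 0.779 and that of PCDHB13 1.88 ± 1.41 (SD, n = 12). The motif bins together averaged 1.22 ± 0.181, with columns from 0.921 to 1.55, against 1.02 ± 0.197 in the other 69 PCDHB exon bins, and were higher in 9 of 12 columns. The motif bins had 62.0% GC and the others 42.1%, and the values expected from GC content were 1.59 and 1.08. Over the whole locus the 54 bins with any G4 motif averaged 1.09 ± 0.125 and the other 686 bins 0.940 ± 0.0643, but against bins of like GC content the values were -0.247 and -0.0580. Since near-identical copies can share reads, the value of a single PCDHB exon is uncertain.

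The highest single bins of the locus all lay in variable exons, and the lowest all lay outside exons. After the PCDHGC4 start bin came bins in PCDHB13 (chr5:141214001-141215000, 2.63 ± 1.97), PCDHGC5 (chr5:141490001-141491000, 2.50 ± 1.16), PCDHGC3 (chr5:141476001-141477000, 2.45 ± 1.27) and PCDHGA7 (chr5:141384001-141385000, 2.39 ± 1.36). The PCDHGC3 bin, with 75 CpGs at 58.3% GC, was the one of these 5 that exceeded 1 in all 12 columns, from 1.17 to 5.18. The lowest bins were chr5:140905001-140906000 at -0.673 ± 1.64 and chr5:140914001-140915000 at -0.474 ± 1.01 before PCDHAC1, chr5:140950001-140951000 at -0.544 ± 1.31 before PCDHAC2, chr5:141113001-141114000 at -0.441 ± 1.39 before PCDHB4, and chr5:141335001-141336000 at -0.409 ± 1.01 after the variable exon of PCDHGA1 and inside that gene. They held 1 to 8 CpGs. Of the other genes in the locus, TAF7, which encodes a subunit of the general transcription factor TFIID, had a start bin at 1.07 ± 1.29, and SLC25A2, which encodes a mitochondrial ornithine carrier, one at 1.34 ± 0.766 that was above 0 in 12 of 12 columns.

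Differentially enriched regions (OG-DERs) were sought bin by bin with limma on the log2(value + 1) scale, taking bins whose p before adjustment was 0.01 or less and whose log2 fold change was larger than 0.5 either way. The study called its OG-DERs over annotated features such as CpG islands, exons and introns. The counts of 1 kb bins given here are therefore not comparable with its own. In the locus 2 gains and 1 loss were found in MUTYH-/, 2 gains and 1 loss in OGG1-/, and 1 gain and 2 losses in DKO, out of 740 bins tested. Across 2802495 bins the gains took 0.3%, 0.299% and 0.296% and the losses 0.322%, 0.256% and 0.312%, and the 1 or 2 locus bins per direction lie close to these shares of 740. None passed the adjusted p of 0.05 with limma, and the lowest adjusted p in the locus was 0.985, 0.998 and 0.99. At an unadjusted p under 0.05 limma gave 23, 27 and 21 locus bins, beside 4.39%, 4.1% and 4.31% of all bins.

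The start bin of PCDHB3 was an OG-DER in both genotypes that lack OGG1. It held -0.0341, 0.278 and -0.262 for WT, 2.05, 0.279 and 1.11 for MUTYH-/, 2.27, 1.56 and 3.05 for OGG1-/, and 2.23, 3.03 and 3.65 for DKO. All 9 knockout columns were above all WT columns, although MUTYH-/ column 2 was so only in the third decimal. The limma log2 fold changes were 3.75 for OGG1-/ (unadjusted p = 0.00614, adjusted p = 0.998) and 4.11 for DKO (unadjusted p = 0.00264, adjusted p = 0.99). The comparisons share the WT columns, and the low WT values enter both. Negative values were set to 0 and 1 was added before the log. The size of a fold change from a group near 0 therefore depends on this floor and is not a measured ratio of OG. The fold changes of the other OG-DERs below have the same limit.

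The start bin of PCDHB8 was a gain in OGG1-/. It held -0.695, -0.713 and 0.307 for WT, 2.16, 3.69 and 1.61 for MUTYH-/, 3.17, 2.21 and 3.84 for OGG1-/, and -0.793, 0.433 and 0.496 for DKO. Both single knockouts were thus above WT in every column, whereas DKO overlapped with WT. A bin in the PCDHGB7 exon (chr5:141419001-141420000, 78 CpGs) was a loss in DKO, with 4.75, 2.45 and 3.82 for WT, 1.58, 1.52 and 1.47 for MUTYH-/, 2.21, 1.86 and 3.25 for OGG1-/, and 0.546, -0.303 and 0.443 for DKO. The remaining OG-DERs were not in variable exons. They were a gain in MUTYH-/ 879 bp from the PCDHGA4 variable exon (log2 fold change 3.99) and a loss in MUTYH-/ 24169 bp from that of PCDHAC2 (-3.36). Both of these bins lie inside the annotated span of the named gene. The others were a gain in MUTYH-/ within DIAPH1, which encodes an actin-nucleating formin (3.88), a loss in OGG1-/ 15115 bp from the PCDHB2 variable exon (-4.29) and a loss in DKO 7213 bp from that of PCDHB6 (-4.70).

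OG-enriched bins (OG-EBs), those in the top 5% of values in 2 or 3 of the 3 columns of a genotype, were counted on the subtracted values and then on the log2 ratio of OG to input reads, the measure that the study used. The study also required each bin to be present in both technical replicates, and it combined adjoining bins. That rule could not be applied to these columns, so the counts here are not comparable with those of the study. The 2 measures gave opposite orders of locus and flanks in all genotypes but OGG1-/, although by ratio the shares lay close together, at 1.22% and 1.2% for DKO. On the subtracted values there were 8 for WT, 8 for MUTYH-/, 7 for OGG1-/ and 6 for DKO, that is 1.08%, 1.08%, 0.946% and 0.811% of the locus. Across all bins the shares were 1.34%, 1.33%, 1.54% and 1.3%, and in the flanks 2.3%, 2.3%, 2.4% and 2.15%. Variable exon bins held 3, 3, 4 and 3 of these locus bins. On the log2 ratio there were 10, 11, 6 and 9, or 1.35%, 1.49%, 0.811% and 1.22% of the locus, beside 0.863%, 0.924%, 0.944% and 0.923% of all bins and 1.25%, 1.25%, 0.95% and 1.2% of the flanks. The locus share was thus below that of its flanks by subtraction for all 4 genotypes, and by ratio for OGG1-/ only, and neither difference was tested. On the subtracted values 25 locus bins were OG-EBs in at least 1 genotype and 0 in every genotype, in the flanks the numbers were 171 and 0, and over all bins 135242 and 888 (0.657%). The agreement between columns was low also in steps of 20 kb, where pairs of columns of 1 genotype had a mean r of 0.246 over the 37 steps and pairs of different genotypes 0.329.

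Over the variable exons the relative input reads did not overlap between WT and the knockouts. Input reads per bin, relative to the genome mean of the column, were 1.08, 1.13 and 1.08 for WT, 0.885, 0.873 and 0.875 for MUTYH-/, 0.963, 0.941 and 0.925 for OGG1-/, and 0.956, 0.908 and 0.957 for DKO. No knockout column reached the lowest WT column. The differences from WT were -0.221, -0.155 and -0.158, each with a 2-sided exact permutation p and an adjusted p of 0.1, the smallest possible. The OG reads were ordered similarly, at 1.11 ± 0.00814 for WT, 0.971 ± 0.0441 for MUTYH-/, 1.05 ± 0.0255 for OGG1-/ and 0.975 ± 0.0125 for DKO (SD, n = 3 each). In the other locus bins the input means were 0.944, 0.953, 0.971 and 0.992, and the OGG1-/ and DKO columns lay above all WT columns (differences of 0.0274 and 0.0477, each with an exact permutation p of 0.1). In the flanks the DKO columns lay below all WT columns, with a difference of -0.0370 (exact permutation p = 0.1). The same order of WT above the knockouts was found over the genome, where all bins with 45 or more CpGs and 45 to 65% GC gave input means of 1.08 for WT, 0.845 for MUTYH-/, 0.903 for OGG1-/ and 0.850 for DKO. Divided by the expectation from GC content and CpG number, the exon input was 1.07, 0.943, 0.991 and 1.01, and the knockouts still lay apart from WT, by -0.126, -0.0781 and -0.0588 (each with an exact permutation p of 0.1). This comparison was added after the data had been seen, and the part of the input in the OG signal of the exons was not tested.

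**Figure D5:**
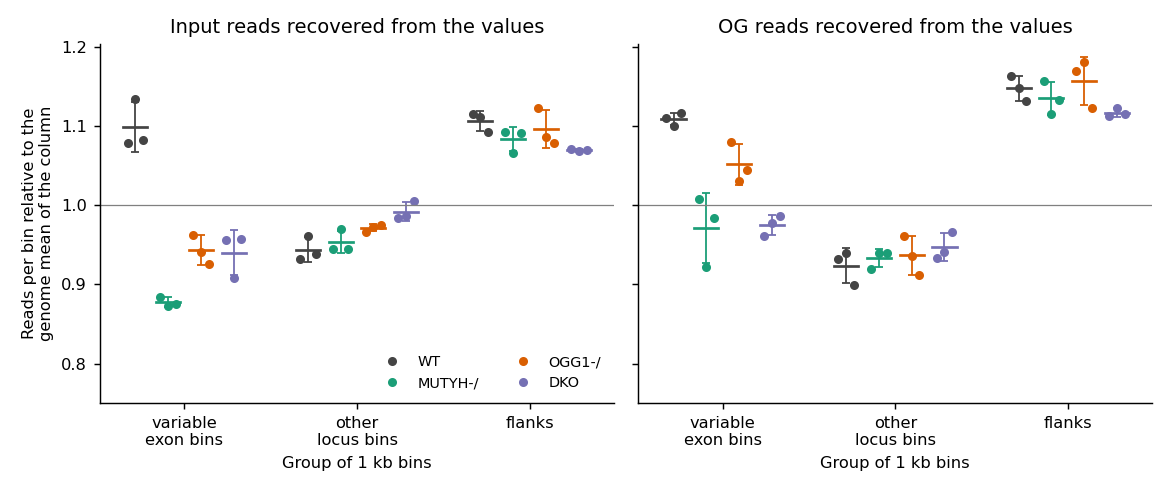
Input reads (left) and OG reads (right) per bin relative to the genome mean of the column in variable exon bins, other locus bins and flanks, with points for columns and bars for mean and SD of 3 columns per genotype. Over variable exons the WT input columns at 1.08 to 1.13 lie above all knockout columns at 0.873 to 0.963. In the other locus bins the input of OGG1-/ and DKO lies above that of WT.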

How the data were processed

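OG-seq was done on HAP1 cells of 4 genotypes. The values were deposited as a score per 1 kb bin of GRCh38: the authors trimmed reads with cutadapt (version 2.8), aligned them with Bowtie2 (version 2.3.5.1), counted them per bin with bedtools and subtracted input reads scaled by signal extraction scaling (SES), so values can be negative and are not read counts. The table was deposited with 3 columns per genotype, not tied to clones. The numbers of the columns were not used to pair them in the main comparisons. Only 4 of 18 same-numbered pairs correlated with r over 0.1, which cannot exclude an experiment shared by columns of the same number.

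Each column was divided by its mean over all 2835235 bins. Whole OG and input reads (2 input runs) were recovered from the values of all but 4 to 17 bins per column; this recovery was a step of the re-analysis. Region means were compared over columns with exact 2-sided sign-flip tests (12 columns) or permutation tests (3 against 3, or 6 against 6 within strata), with Benjamini-Hochberg adjustment within each family. OG-DERs were fitted with limma (version 3.58.1) on log2(value + 1), negative values set to 0, over the 2802495 bins above 0 in at least 3 columns. The authors fitted edgeR to subtracted values; limma replaced it, since values after subtraction are not whole numbers. OG-EBs were called on the subtracted values and, as an alternative nearer to the ratio the authors used, on log2 ratios of recovered reads. The script was tested on simulated data. GC and CpG expectations are means over all bins of the same class in the same column (classes of 1% GC, or of 2% GC and 5 CpGs). Variable exons came from GENCODE (release 44) and promoter sequences from RefSeq. Intervals from read counts would cover counting error only and were not used.

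Named genes were the 5 C-type genes, the 3 highest and 3 lowest start bins per array, all OG-DERs, the 5 highest and 5 lowest bins and the other genes of the locus. The locus, lists and tests were chosen with earlier results of these data known. The adjustment for GC content and CpG number and the comparison of relative input reads were added after seeing the data, as were the sequence motifs. Alternatives for scaling, negative values, medians, GC content, log2 ratios, flanks, exon definitions, filters, thresholds and left-out columns were also computed.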

Additional observations from a re-analysis of the deposited data

How the results depend on the processing

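The difference between locus and flanks kept its direction and its side of the threshold under every alternative computed, flank widths of 500 kb and 2 Mb included, as did start bins against other locus bins except under the composition adjustments (0.0712 for GC content, 0.0933 with CpGs). PCDHB minus PCDHG lost its call for GC content (-0.0878) and with CpGs (-0.118), and PCDHA minus PCDHG with CpGs (-0.113). PCDHA minus PCDHB passed with log2 read ratios (-0.0413) and turned with CpGs (0.00538) and in exon bins alone (0.123). The cause was not tested. No comparison of 3 knockout with 3 WT columns over regions could pass 0.05, so a turn in sign there is no lost call, and the 6 against 6 comparisons, which could pass, did not do so under any alternative computed.

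Differences from WT that turned were as follows. Without scaling, in reads per bin, they were 0.98 for DKO in the locus, 0.402, 1.05 and 0.145 for MUTYH-/, OGG1-/ and DKO in PCDHA, 1.36 and 0.356 for OGG1-/ and DKO in PCDHB, 1.29 and 0.806 for MUTYH-/ and DKO in PCDHG, and 0.833 and 0.147 for loss of OGG1 and of MUTYH. With medians, MUTYH-/ gave 0.0111 for locus minus flanks, MUTYH-/, OGG1-/ and DKO in PCDHA 0.0315, 0.087 and 0.013, and OGG1-/ in PCDHB 0.00351, where scaling by chromosome 5 gave 0.00385. For GC content, locus minus flanks was 0.00421 in MUTYH-/ and 0.00568 in OGG1-/, and PCDHB in OGG1-/ 0.0102. With CpGs these were 0.023, 0.0247 and 0.0313, PCDHA 0.00663 in MUTYH-/ and 0.0205 in OGG1-/, and PCDHG 0.0127 in MUTYH-/. With log2 read ratios, MUTYH-/ had 0.0216 for locus minus flanks, 0.0201 in PCDHA and 0.0259 in PCDHG, and OGG1-/ 0.0087 in PCDHA and 0.0115 in PCDHB. Against the flank after the locus alone MUTYH-/ had 0.013. In exon bins alone the values were 0.101 and 0.219 for MUTYH-/ and OGG1-/ in PCDHA, 0.269 and 0.114 for OGG1-/ and DKO in PCDHB, and 0.0226 for MUTYH-/ in PCDHG.

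Leaving out the columns of 1 number at a time, PCDHA minus PCDHB ranged over -0.0991 to -0.00908 and passed without columns 3. MUTYH-/ against WT ranged over -0.0103 to 0.0536 in the locus, -0.0609 to 0.0377 for locus minus flanks, -0.0109 to 0.257 for start bins, and -0.15 to 0.0599, -0.0341 to 0.183 and -0.168 to 0.102 in PCDHA, PCDHB and PCDHG. OGG1-/ ranged over -0.0937 to 0.0116 for locus minus flanks, -0.0219 to 0.249 for start bins and -0.0336 to 0.0107 in PCDHB, and loss of MUTYH over -0.0788 to 0.0105 in the locus.

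OG-DERs numbered 7, 6 and 8 for MUTYH-/, OGG1-/ and DKO with no filter, 5 for MUTYH-/ and 5 for OGG1-/ after GC centring, and 0, 0 and 0 by adjusted p. Without the columns of 1 number they were 1 to 1, 0 to 3 and 1 to 3. A limma fit with the replicate number as a block gave 3, 4 and 3, beside 3 for each without it. OG-EBs numbered 1, 1, 0 and 1 for WT, MUTYH-/, OGG1-/ and DKO at the 99th percentile, 0, 1, 0 and 0 when 3 of 3 columns were required, and 3, 3 and 3 for WT, MUTYH-/ and DKO after GC centring. The other 271 alternative values kept direction and side. Depth limits the single bins most, at a mean of 30.99 OG reads per bin and column in the locus.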
